A study of Rattus norvegicus with 6 samples.

Results

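Glycine and serine supply enzymes are described here as a set of 10 named genes: the serine synthesis enzymes Phgdh, Psat1 and Psph, the serine hydroxymethyltransferases Shmt1 and Shmt2, the glycine cleavage proteins Gldc, Gcsh and Amt, and the glycine-handling amidino- and aminotransferases Gatm and Agxt2. The genes were chosen by name and not by their values. Of the 10, 8 had at least 1 probe on the array whose accession matched the gene, with 12 probes in all, and these 8 were among the 31179 genes tested. Of these 31179, 12276 had a gene symbol and the rest were counted by accession, so a gene may be counted more than once. Shares of all genes below are over all 31179. No probe was matched to Shmt1 or Gldc, so both are not analysed here. The data are RNA signals of renal cortex from 6 male Sprague-Dawley rats (Crl:CD(SD)), 5 weeks old at purchase and kept on a basal diet, with 1 array of a 1-colour (Cy3) Agilent design per animal. In the benzyl acetate group 3 rats received benzyl acetate at 1000 mg/kg/day for 4 weeks, and in the vehicle group 3 rats received corn oil for 4 weeks. The route of dosing is not given in the sources used here. Levels below are on a log2 scale with each array's own 75th percentile set to 0, so 0 is the signal that 75% of non-control probes do not exceed, and a difference is benzyl acetate minus vehicle.

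Benzyl acetate is a fragrance ester. In the body its ester bond is split, the benzyl alcohol released is oxidised to benzoate, and mitochondria of liver and kidney couple benzoate to glycine as hippurate, which leaves in urine. Each hippurate molecule uses a molecule of glycine. Glycine can be made from serine by serine hydroxymethyltransferase, in the cytosol (SHMT1) or in mitochondria (SHMT2), and serine in turn is built from the glycolytic intermediate 3-phosphoglycerate by PHGDH, PSAT1 and PSPH. The mitochondrial glycine cleavage system, with its P (GLDC), H (GCSH), T (AMT) and L (DLD) proteins, splits glycine and passes a carbon unit to folate. The kidney is a site of serine synthesis, and its proximal tubule carries out the first step of creatine synthesis through GATM, which transfers an amidino group from arginine to glycine. AGXT2 is a mitochondrial aminotransferase of kidney and liver that converts glyoxylate to glycine and also acts on dimethylarginine and beta-aminoisobutyrate.

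None of the 8 measured enzymes differed between the groups past the test. In limma 0 of 8 passed an adjusted p of 0.05, beside 0.0% of all genes, and 0 of 8 had an unadjusted p under 0.05, beside 6.74% of all genes (3.82% higher and 2.92% lower with benzyl acetate). The groups overlapped in all 8, whereas they did not overlap for 12.8% of all genes (7.51% higher and 5.31% lower). The 95% interval of the difference lay inside 1.5-fold either way for 7 of the 8, with Gatm the exception, against 73.9% of all genes tested and 77.1% of those with a symbol, a share near this background. Of the 8 differences, 2 were above 0 and 6 below, with a median of -0.047, beside a median of 0.012 over all genes.

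Between 69.0% and 69.8% of probes were well above background on the benzyl acetate arrays and between 70.5% and 72.0% on the vehicle arrays, and all 8 enzymes were well above background on all 6. Benzyl acetate replicate 3 stood apart on the first principal component, at 50.1 against -24.4 to -0.2 for the other 5 arrays, and vehicle replicate 1 was on slide 1 while the rest were on slide 2. All 9 listed markers of the early proximal tubule, the main cell of renal cortex, were tested, and they summed to 2308 to 2471 (linear scale relative to the 75th percentile) with benzyl acetate and 1985 to 2395 with vehicle. Of 6 late straight segment markers, 3 (Slc7a13, Slc22a7 and Slc5a10) were lowest on replicate 3 in both groups. Slc7a13, an amino acid transporter, stood at 4.62, 4.47 and 2.74 with benzyl acetate and at 5.51, 5.54 and 2.63 with vehicle. The samples are whole tissue, so fewer cells of a type and less RNA per cell cannot be told apart.

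The serine synthesis genes come first in the pathway. PHGDH, PSAT1 and PSPH catalyse consecutive steps, and in mammalian cells their transcription is raised by the amino acid response factor ATF4. The start regions of these 3 genes are shown because such response elements are looked for there. They are RefSeq sequences of the GRCr8 assembly, from 250 bases before to 50 bases after the annotated start, 5′ to 3′ on the gene's strand. Phgdh spans chr2:188624740-188625039 (minus strand), Psat1 chr1:222645359-222645658 (minus strand) and Psph chr12:32526841-32527140 (plus strand). Capitals mark matches on either strand to a CCAAT box, to a GC box with the letters GGGCGG, or to a TATA box with the letters TATAAA.
Phgdh: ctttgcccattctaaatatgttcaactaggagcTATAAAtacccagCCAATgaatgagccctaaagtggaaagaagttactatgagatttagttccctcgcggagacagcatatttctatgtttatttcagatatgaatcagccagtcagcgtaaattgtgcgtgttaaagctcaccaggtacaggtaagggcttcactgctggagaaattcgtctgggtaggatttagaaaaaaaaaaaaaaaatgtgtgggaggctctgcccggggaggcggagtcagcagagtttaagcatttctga
Psat1: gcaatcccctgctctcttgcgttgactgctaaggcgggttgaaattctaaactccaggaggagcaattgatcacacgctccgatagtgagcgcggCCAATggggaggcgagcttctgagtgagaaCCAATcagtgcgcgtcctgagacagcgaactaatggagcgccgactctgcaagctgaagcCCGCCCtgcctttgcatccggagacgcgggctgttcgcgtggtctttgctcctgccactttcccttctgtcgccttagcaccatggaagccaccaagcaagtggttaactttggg
Psph: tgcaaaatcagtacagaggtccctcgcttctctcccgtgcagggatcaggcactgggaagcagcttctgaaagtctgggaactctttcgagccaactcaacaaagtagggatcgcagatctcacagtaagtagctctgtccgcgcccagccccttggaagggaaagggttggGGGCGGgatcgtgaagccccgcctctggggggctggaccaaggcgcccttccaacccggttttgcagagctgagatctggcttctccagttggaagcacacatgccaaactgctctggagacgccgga

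The Phgdh window held 1 CCAAT and 1 TATAAA, the Psat1 window 2 CCAAT and 1 GC box, and the Psph window 1 GC box. The Phgdh TATAAA began at -217 from the annotated start. Over the windows of all 10 genes, 7 held CCAAT, 5 held GGGCGG and 3 held TATAAA. Of 33469 rat start regions of the same length, 37.49%, 33.06% and 14.22% did. The composite motif TGATGNAA, the core bound by ATF4 with a C/EBP partner, was in 0 of the 10 windows and in 3.98% of all. A match is a description of letters, and no match says only that these letters are not in this window.

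Phgdh, the first and committed enzyme of serine synthesis, had 6.67, 6.63 and 7.06 in benzyl acetate replicates 1 to 3, against 6.77, 6.83 and 6.85 in vehicle replicates 1 to 3. Benzyl acetate replicates 1 and 2 lay below all vehicle arrays and replicate 3 above all of them. The difference was -0.032 (95% interval -0.34 to 0.28), with an adjusted p of 0.981 in limma. The other Phgdh probe showed the same order among the treated arrays, with 6.71, 6.66 and 6.89 for benzyl acetate and 6.76, 6.83 and 6.88 for vehicle, and a difference of -0.069. Without benzyl acetate replicate 3 the Phgdh difference was -0.14, with an adjusted p of 0.863 in limma.

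Psph, the phosphatase that releases serine, had the same arrangement of arrays as Phgdh. It stood at 3.03, 2.97 and 3.40 with benzyl acetate, against 3.14, 3.25 and 3.20 with vehicle, so benzyl acetate replicate 3 was again above and the other treated arrays below the vehicle arrays. The difference was -0.063 (-0.38 to 0.25, adjusted p = 0.95 in limma). Without benzyl acetate replicate 3 it was -0.20, with an unadjusted p of 0.049 and an adjusted p of 0.863 in limma. The SD between treated animals was 0.24 for Phgdh and 0.24 for Psph, and between vehicle animals 0.043 and 0.052 (n = 3 each).

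Psat1, the aminotransferase between these steps, did not share that arrangement. Its probe of higher signal had 5.42, 5.63 and 5.47 in benzyl acetate replicates, against 5.49, 5.43 and 5.64 in vehicle replicates. The arrays of both groups were interleaved, and the difference was -0.013 (-0.24 to 0.22, adjusted p = 0.992 in limma). A dimmer Psat1 probe spanned 1.14 log2 over the 6 arrays, from -1.81 in vehicle replicate 1 to -0.67 in vehicle replicate 3, against a span of 0.22 for the probe of higher signal. Its difference was 0.084 with an interval of -0.75 to 0.92, so it could not place the gene within 1.5-fold.

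**Figure D1:**
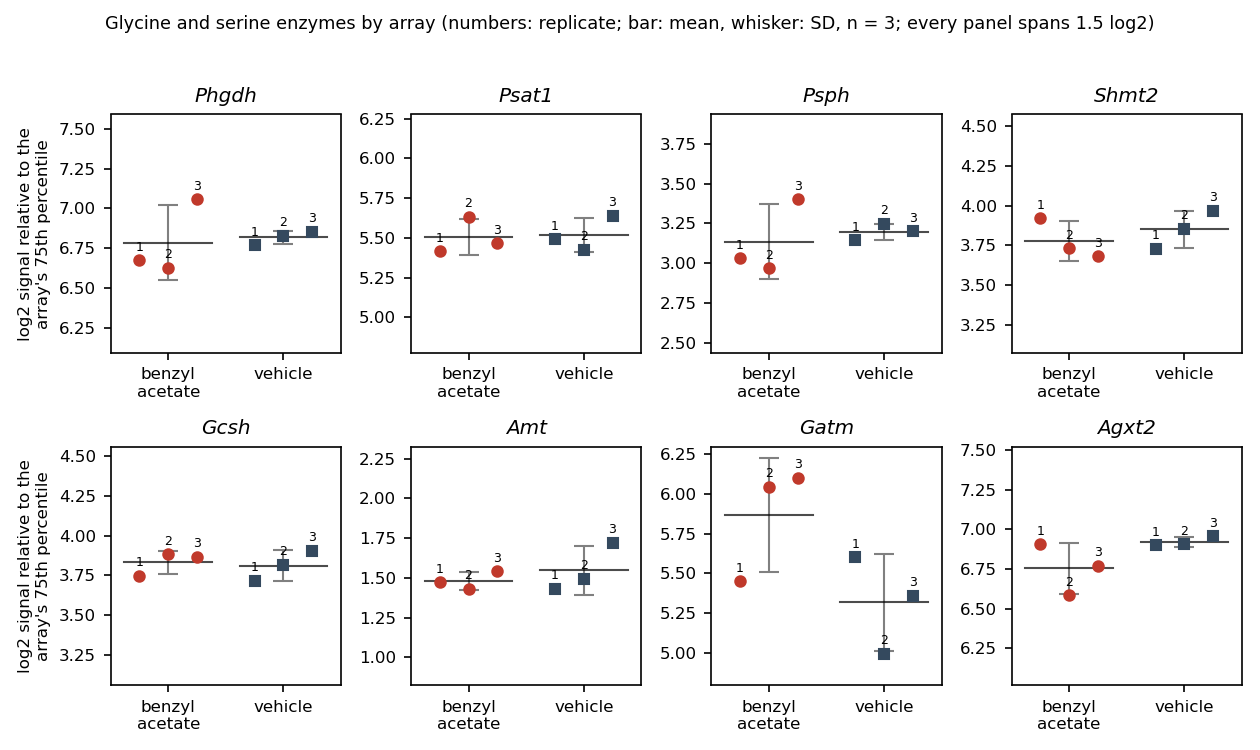
Log2 level, with the 75th percentile of each array at 0, for the 8 measured enzymes, benzyl acetate (red circles) left of vehicle (blue squares), with replicate numbers, the group mean and the SD (n = 3 each). The groups overlap in every panel, and Gatm has the widest spread, from 4.99 to 6.10.

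Shmt2 encodes the mitochondrial serine hydroxymethyltransferase, which turns serine into glycine and charges mitochondrial folate. It had 3.92, 3.73 and 3.68 with benzyl acetate, against 3.73, 3.86 and 3.97 with vehicle. The highest array was vehicle replicate 3, followed by benzyl acetate replicate 1, so the groups overlapped. The difference was -0.073 (-0.32 to 0.17, adjusted p = 0.913 in limma), at most a 1.25-fold difference at either end of the interval. Without replicate 3 of both groups it was 0.033 (adjusted p = 0.961 in limma).

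Gcsh encodes the lipoyl-carrying H protein that shuttles the intermediate between the other glycine cleavage proteins. Its values were 3.75, 3.88 and 3.87 with benzyl acetate, against 3.71, 3.82 and 3.91 with vehicle. The difference of 0.021 (-0.18 to 0.22, adjusted p = 0.980 in limma) was the most tightly bounded of the 8, at most 1.16-fold. The other Gcsh probe gave 0.022, with 3.48, 3.56 and 3.58 for benzyl acetate and 3.50, 3.49 and 3.56 for vehicle.

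Amt encodes the aminomethyltransferase (T protein) that releases ammonia and loads the carbon unit on folate. It had 1.47, 1.43 and 1.54 with benzyl acetate, against 1.43, 1.49 and 1.72 with vehicle. Vehicle replicate 3 was the highest array, and the other 5 were interleaved between 1.43 and 1.54. The difference was -0.067 (-0.30 to 0.17, adjusted p = 0.920 in limma), and it was 0.020 without vehicle replicate 3. That array was the highest of the 6 for 5 of the 8 enzymes, namely Psat1, Shmt2, Gcsh, Amt and Agxt2, and lay above the gene's own mean for 7 of 8. Its summed T and NK cell markers (6 of 8 listed were tested) were also the highest, at 4.58. The other arrays had 1.71 to 2.04 with benzyl acetate and 2.07 and 2.23 with vehicle. Its summed thick ascending limb markers were the lowest, at 239. They summed to 303 to 325 with benzyl acetate and 379 and 424 on the other vehicle arrays. That sum is weighted to the bright marker Umod, at 7.54 on vehicle replicate 3. Umod and Slc12a1 were lowest on that array, and Egf, Cldn16 and Kcnj1 were not. The part of both marker lists in the enzyme values was not tested.

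Agxt2 was the member with the largest difference below 0. Its values were 6.91, 6.58 and 6.77 with benzyl acetate, against 6.90, 6.90 and 6.95 with vehicle. Benzyl acetate replicate 1 lay among the vehicle arrays, and replicates 2 and 3 lay below them. The difference was -0.17 (-0.40 to 0.071), which is 0.89-fold, with an adjusted p of 0.792 in limma. The SD was 0.16 between treated animals and 0.031 between vehicle animals (n = 3 each). Without benzyl acetate replicate 2 the difference was -0.081, and without benzyl acetate replicate 1 it was -0.24, with an unadjusted p of 0.047 and an adjusted p of 0.677 in limma.

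**Figure D2:**
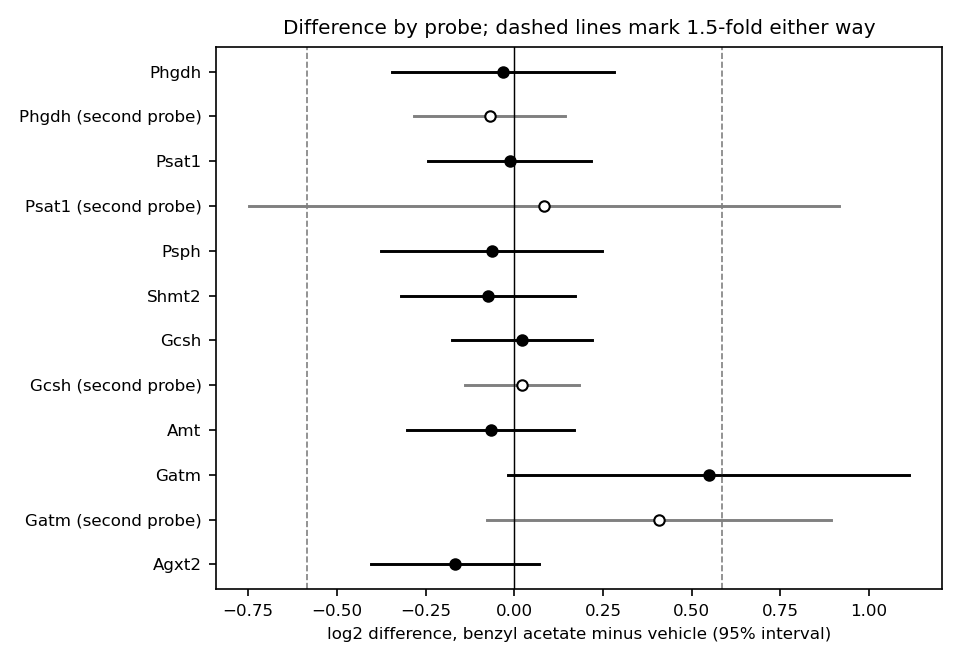
Log2 difference, benzyl acetate minus vehicle, with its 95% interval in limma for each of the 12 probes, filled where the probe represents the gene and open for the other probe of the same gene. Apart from both Gatm probes and the dimmer Psat1 probe, every interval lies between the dashed lines at 1.5-fold.

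Gatm, the arginine:glycine amidinotransferase, had the largest difference of the 8 and the widest spread between animals. Its values were 5.45, 6.05 and 6.10 with benzyl acetate, against 5.60, 4.99 and 5.36 with vehicle. Benzyl acetate replicates 2 and 3 lay above all vehicle arrays, benzyl acetate replicate 1 lay between vehicle replicates 3 and 1, and vehicle replicate 2 was the lowest. The mean was 5.87 ± 0.36 with benzyl acetate and 5.32 ± 0.31 with vehicle (SD, n = 3 each). Benzyl acetate minus vehicle came to 0.55 (95% interval -0.019 to 1.11), or 1.46-fold (0.99 to 2.17). It did not pass, with an unadjusted p of 0.056 and an adjusted p of 0.740 in limma, and an exact two-sided permutation test gave p = 0.2, where 3 against 3 arrays allow no less than 0.1. Of all genes tested, 7.53% had a lower p and 3.69% a difference at least as large in either direction.

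The spread of Gatm was shared by both of its probes. The other probe had 3.47, 3.92 and 3.95 with benzyl acetate, against 3.65, 3.06 and 3.41 with vehicle, the same order of animals within each group. Its difference was 0.41 (-0.076 to 0.89, unadjusted p = 0.085 and adjusted p = 0.770 in limma over all probes). Over the 6 arrays the distance between both probes varied by 0.21 log2, while the Gatm signal itself spanned 1.11 log2, a 2.15-fold range. The residual SD of Gatm was 0.33, above that of 86.4% of genes, against 0.085 to 0.17 for the other 7 enzymes and a median of 0.14 over all genes.

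**Figure D3:**
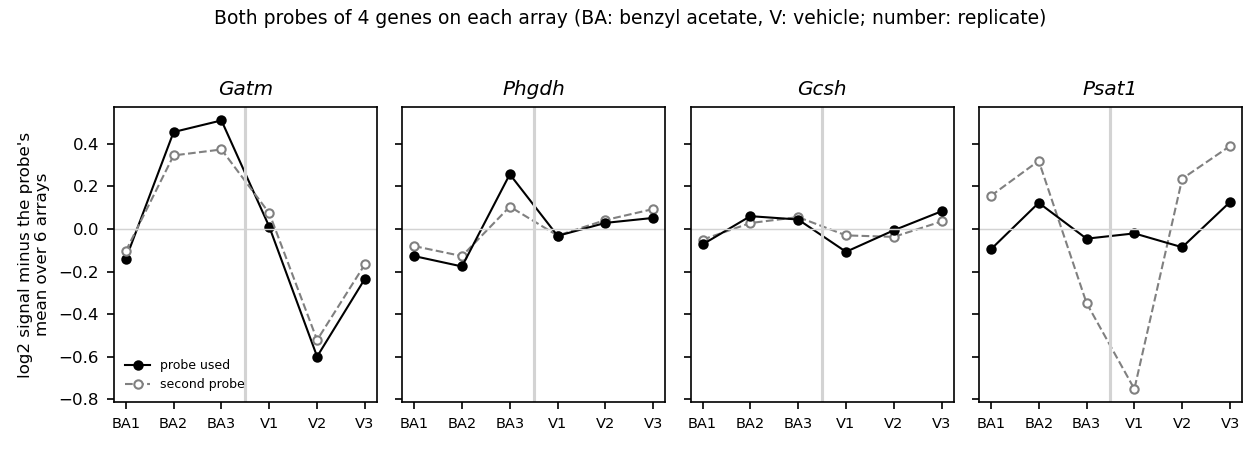
Log2 signal minus the probe's own mean over the 6 arrays for the 4 enzymes with 2 probes, benzyl acetate arrays left of vehicle arrays. Both Gatm probes follow one course over the animals. The Phgdh probes span 0.43 (probe used) and 0.23 log2, and the Gcsh probes 0.19 (probe used) and 0.11. The dimmer Psat1 probe departs from the other by low values in vehicle replicate 1 and benzyl acetate replicate 3.

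The Gatm difference kept its sign in all 18 alternatives, from 0.39 without vehicle replicate 2 to 0.76 without benzyl acetate replicate 1, and its adjusted p ran from 0.401 to 0.926 in limma. Not all of these could move it. It stayed at 0.55 with the replicate block, other probe filters, flagged spots kept, a trended robust prior in limma and the deposited value table. The difference with the slide as a block equals that without vehicle replicate 1. Within slide 2, which leaves out vehicle replicate 1, it was 0.69 (0.050 to 1.33, unadjusted p = 0.039 and adjusted p = 0.831 in limma). Without benzyl acetate replicate 3 it was 0.43, and without replicate 3 of both groups it was 0.45. GATM is itself a proximal tubule enzyme, and the 9 other early proximal markers had a median difference of 0.099, with 0 passing in limma. Of these, 7 were above 0 and 2 below, beside 54.0% of all genes above 0. Groups did not overlap for 3 of the 9, all higher, beside 12.8% of all genes (7.51% higher). These were Slc5a12, a lactate transporter, at 0.23, and the organic anion transporters Slc22a6 at 0.19 and Slc22a8 at 0.14. The 2 below 0 were Slc34a1, a sodium-phosphate cotransporter, at -0.022 and Lrp2, the endocytic receptor megalin, at -0.027. Without vehicle replicate 1, or without benzyl acetate replicate 1, 5 of the 9 were above 0. The part of these markers in the Gatm values was not tested. Vehicle replicate 1 had the lowest summed level of these markers, 1985, and the highest Gatm value of the vehicle arrays.

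**Figure D4:**
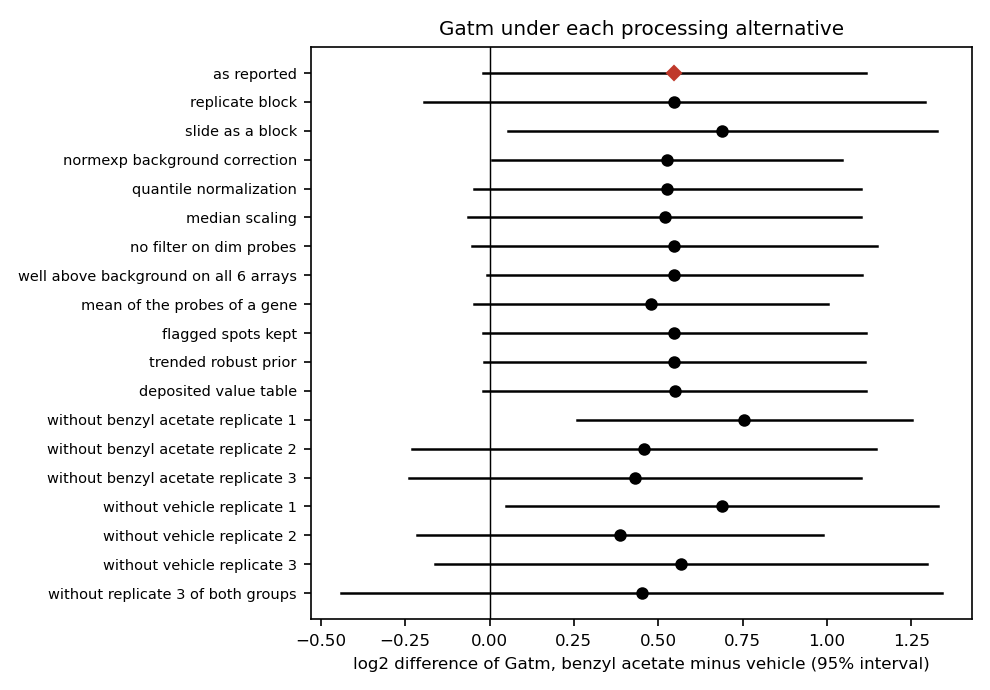
Log2 difference of Gatm, benzyl acetate minus vehicle, with its 95% interval in limma, as reported (red diamond) and under 18 alternatives (black points). All values lie above 0, between 0.39 and 0.76, and most intervals include 0.

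The genes around Gatm in creatine metabolism were measured on the same arrays. Gamt, which methylates the guanidinoacetate made by GATM into creatine, had 4.09, 4.09 and 4.10 with benzyl acetate, against 4.15, 4.04 and 3.91 with vehicle, a difference of 0.061 (adjusted p = 0.908 in limma). Slc6a8, the creatine transporter, had 6.84, 7.03 and 7.12 with benzyl acetate, against 6.66, 6.74 and 6.74 with vehicle. The groups of Slc6a8 did not overlap, and its difference was 0.28 (0.058 to 0.51, unadjusted p = 0.022 and adjusted p = 0.700 in limma), so it did not pass. A dimmer Slc6a8 probe gave 0.15.

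Of 87 further genes of glycine, serine and folate metabolism and transport in 6 lists, 85 had a matched probe and 79 were tested. In limma 0 passed, with adjusted p-values from 0.609 upwards. At an unadjusted p under 0.05 there were 5 higher and 1 lower, 7.59% of the 79 beside 6.74% of all genes, and the groups did not overlap for 12, or 15.2%, beside 12.8%. The median difference was 0.0060, with 41 above 0 and 38 below, and 65 of the 79 intervals lay inside 1.5-fold. Where a gene had several tested probes (32 genes), these differed in sign for 9. A separate list held ATF4 and its targets.

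The list around the glycine cleavage system held Dld, the L protein that reoxidises the lipoyl arm, and 7 lipoylation factors, with 0 of 8 passing and a median of 0.036. Dld had the highest difference of the list, with 4.22, 4.29 and 4.25 in benzyl acetate replicates, against 3.98, 4.18 and 4.14 in vehicle replicates. Its groups did not overlap, and the difference was 0.15 (-0.041 to 0.34, adjusted p = 0.775 in limma). The lowest was Bola3, an iron-sulfur assembly factor, at -0.11.

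Of the 19 folate carbon-transfer genes tested, 0 passed, with 10 above 0, 9 below and a median of 0.0055. Mthfd1, the cytosolic trifunctional enzyme, differed by 0.086, and Mthfd2, a mitochondrial dehydrogenase, by -0.14. Mthfd1l, the mitochondrial formate-tetrahydrofolate ligase, differed by -0.16, from a dim probe with a vehicle mean of -4.38. Adjusted p-values of these 3 in limma were 0.762 to 0.858. Groups did not overlap for 4 of the 19, Mthfd1l among them, with genes in both directions, beside 12.8% of all genes. The lowest of the list was Mthfd2l at -0.26.

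The route from choline through betaine and sarcosine ends in glycine, and 0 of its 11 genes passed. It had a median of 0.084, with 10 of 11 above 0, beside 54.0% of all genes. Without vehicle replicate 1, the array with the lowest summed level of the list, 7 of 11 were above 0 and Sardh stood at -0.10, and without benzyl acetate replicate 2 the count was also 7. Bhmt, which passes a methyl group of betaine to homocysteine, differed by 0.18, Dmgdh, dimethylglycine dehydrogenase, by 0.16, and Sardh, sarcosine dehydrogenase, by 0.041. Gnmt, which methylates glycine to sarcosine, differed by 0.22. Adjusted p-values of these 4 in limma were 0.785 to 0.983. The ends were Etfa at -0.015 and Pipox, a peroxisomal sarcosine oxidase, at 0.62 with an interval of -0.45 to 1.69.

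Genes of glycine, serine and threonine breakdown and of glyoxylate had a median of -0.060, with 4 of 15 above 0 and 0 passing. Dao, the D-amino acid oxidase of the proximal tubule, differed by -0.11, Srr, serine racemase, by 0.054, and Sds, serine dehydratase, by -0.16. Agxt, the alanine-glyoxylate aminotransferase that also yields glycine, differed by 0.21 and was the highest of the list. The lowest was Tdh, threonine dehydrogenase, at -0.69 with an interval of -2.41 to 1.02. It was well above background on 2 of 3 benzyl acetate arrays, with -3.19, -5.87 and -3.71 there, against -3.25, -3.44 and -4.01 with vehicle, so replicate 2 of benzyl acetate held the one value below all others.

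Among the glycine users 10 of 11 listed genes were tested and 0 passed, with a median of -0.094. Glyat, the acyltransferase that joins benzoyl-CoA to glycine, had 6.26, 6.38 and 6.36 with benzyl acetate, against 6.15, 6.24 and 6.30 with vehicle, a difference of 0.10 (adjusted p = 0.833 in limma). Gss, glutathione synthetase, differed by -0.38 (-0.95 to 0.19). It had 2.96, 3.01 and 2.76 with benzyl acetate, against 3.66, 3.44 and 2.78 with vehicle, lowest on replicate 3 of both groups. Alas1, the first enzyme of haem synthesis, differed by 0.033. The ends of the list were Glyatl1, a glycine acyltransferase-like gene, at -0.74 and Baat, the bile acid conjugating enzyme, at 0.40. Glyatl1 was listed for its likeness in name to Glyat, and whether its product uses glycine was not tested. Glyatl1 was dim, with -3.43, -2.90 and -3.20 in benzyl acetate replicates, against -2.36, -2.49 and -2.47 in vehicle replicates. Its groups did not overlap, and it did not pass, with an interval of -1.08 to -0.39, an unadjusted p of 0.0020 and an adjusted p of 0.609 in limma, the lowest of all 6 lists.

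Of the 16 transporter genes tested, 0 passed, and 5 had an unadjusted p under 0.05 on the higher side, beside 3.82% of all genes. They were Slc6a8, given above, Slc6a9, Slc7a10, Sfxn2 and Slc38a3, of which Slc6a8, Sfxn2 and Slc38a3 were named after their values were seen. Slc6a9, the glycine transporter GlyT1, had -2.91, -2.90 and -2.95 with benzyl acetate, against -3.19, -3.30 and -3.16 with vehicle, groups that did not overlap. Its difference was 0.30 (0.13 to 0.47, adjusted p = 0.639 in limma), and its 3 probes gave differences from 0.016 to 0.76.

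Slc7a10, an exchanger of small neutral amino acids, differed by 1.03 (0.34 to 1.72), from a dim probe with a vehicle mean of -5.92. Slc38a3, the glutamine transporter SNAT3, differed by 0.81 (0.020 to 1.60) with groups that overlapped, and Sfxn2, a sideroflexin, by 0.54 (0.085 to 0.99). The adjusted p-values of these 5 transporters in limma were 0.639 to 0.734. Both mitochondrial carriers on the direct route gave small differences, -0.042 (-0.20 to 0.12) for Slc25a38, a glycine carrier, and 0.046 (-0.14 to 0.23) for Sfxn1, a serine carrier. The lowest of the list was Slc36a1 at -0.16, and the median was -0.0023, or 0.095 with 11 of 16 above 0 without benzyl acetate replicate 3.

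ATF4 and its targets outside the 10 genes had a median of -0.038 over 23 tested genes, with 11 above 0, 12 below and 0 passing. Atf4 itself had 4.31, 4.34 and 4.32 with benzyl acetate, against 4.52, 4.54 and 4.42 with vehicle. Its groups did not overlap, and its difference was -0.17 (-0.33 to -0.011, unadjusted p = 0.040 and adjusted p = 0.726 in limma). Asns, asparagine synthetase, differed by 0.18 (-0.091 to 0.46). The ends of the list were Ddit4 at -0.63 and Gdf15 at 0.38.

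**Figure D5:**
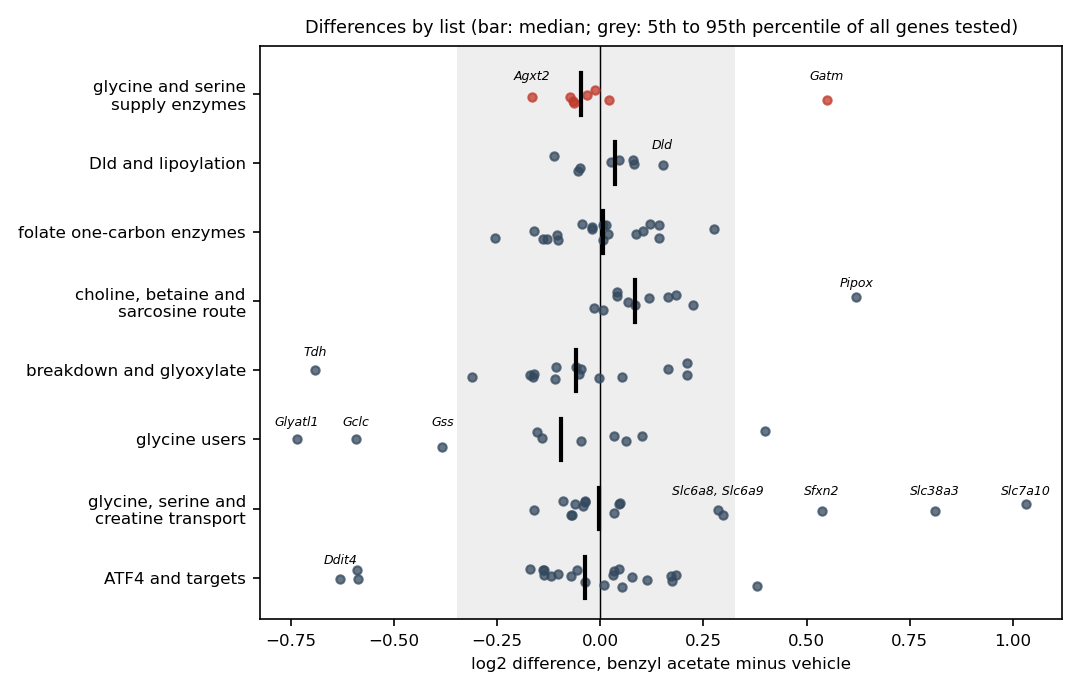
Log2 difference, benzyl acetate minus vehicle, of each gene tested, for the 8 enzymes (red, top) and for 7 lists of related genes (blue), with the list median as a black bar and the 5th to 95th percentile of all genes in grey. Of the 8 enzymes, Gatm at 0.55 is the one outside the grey band.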

How the data were processed

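Processed spot signals of 6 arrays were deposited as intensity values on a linear scale, and the submitters' processing notes name Agilent Feature Extraction 10.7 as the software. Per the file headers they are background-subtracted within an array and not scaled between arrays, and the flags for spots well above background, saturated or outlying were set by the same software. A deposited value table of intensity values equals the same signals divided by a factor per array that puts the 75th percentile at 1 (column medians 0.1148, 0.1118 and 0.1125 with benzyl acetate and 0.1102, 0.111 and 0.111 with vehicle), which keeps it on a linear scale with genes uncentred. How it was made is not given in the sources used here.

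Here signals were put on a log2 scale and shifted so that the 75th percentile of 61537 non-control probes was 0 on every array, with outlier spots left out. No spot was saturated. A probe was tested when well above background on all 3 arrays of a group (42355 probes), named by its unversioned accession through RefSeq gene names (GRCr8) (28206 probes matched, 33331 did not), and each gene was represented by its tested probe of highest mean signal. Near-identical genes may cross-hybridise to one probe. The limma package (3.58.1, R 4.3.3, lmFit and eBayes) was fitted to all 31179 genes, with two-sided tests and Benjamini-Hochberg adjustment over all of them. Simulated data with known changes were used to check it. Groups and replicate numbers come from the sample labels, which give 3 animals per group. The members, lists and named genes were chosen with earlier results of these data known. Named genes were the members, 21 genes of the pathway and the ends of each list, of which 1 is not reported here. The normexp alternative used the median spot signal. The number of arrays limits the precision.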

Additional observations from a re-analysis of the deposited data

How the results depend on the processing

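None of the 8 enzymes passed in limma under any of 18 alternatives (144 values, adjusted p from 0.401), and 14 values changed sign. Some alternatives, such as the replicate block and flagged spots kept, left every enzyme's difference as it was, so the 144 values are not independent. Gcsh was -0.028 with the slide as a block and -0.0085 under median scaling, and Psat1 was 0.036 as the mean of its probes. Over the fits that left out replicates, Phgdh ran from -0.14 to 0.049, Psat1 from -0.077 to 0.067, Psph from -0.20 to 0.020, Shmt2 from -0.14 to 0.033, Gcsh from -0.028 to 0.067 and Amt from -0.13 to 0.020. Gatm (0.39 to 0.76) and Agxt2 (-0.24 to -0.081) kept their sign. With the slide as a block the other differences were -0.056 for Phgdh, -0.027 for Psat1, -0.090 for Psph, -0.13 for Shmt2, -0.13 for Amt, 0.69 for Gatm and -0.18 for Agxt2. Leaving out replicate 3 of both groups, and leaving out single arrays for the gene lists, were chosen after seeing the data.

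Over all genes 0 passed, but 2 with normexp background correction and 0 to 4 over the fits that left out replicates (2 without benzyl acetate replicate 1 and 4 without benzyl acetate replicate 3). The cause was not tested. With the replicate block 0 genes passed and no call among the enzymes changed (Gatm 0.55, adjusted p = 0.792 in limma). Deviations of same-numbered arrays correlated at -0.108, 0.008 and 0.001, and those of differently numbered arrays at -0.108 to 0.121. Whether same-numbered samples were handled together cannot be told from these values. Psat1's dimmer probe and wide intervals such as that of Gatm limit what 3 arrays per group can show.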

Other observations

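Of the 6 listed markers of the late straight segment of the proximal tubule, Slc7a13, Slc22a7 and Slc5a10 were lowest on replicate 3 of both groups. Acsm2, Cyp7b1 and Slc5a1 were not. Besides Slc7a13, given above, Slc22a7, an organic anion transporter, had -2.86, -2.54 and -4.42 with benzyl acetate and -2.0, -1.77 and -4.20 with vehicle. Gclc, a glycine-user list gene and the catalytic subunit of the first glutathione synthesis enzyme, had 5.55, 5.46 and 4.32 with benzyl acetate and 6.4, 6.64 and 4.07 with vehicle. Replicate 3 was the lowest array of its group for Slc7a13, Slc22a7 and Gclc, which were named after their values were seen. The same held for Gss, given above. The 6 listed markers of that segment had a median difference of -0.36, with 5 below 0 and 0 passing in limma. Among the 8 enzymes, benzyl acetate replicate 3 was the highest of the 6 arrays for Phgdh, Psph and Gatm, and vehicle replicate 3 for 5 others. A part of this pattern in the enzyme values was not tested.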
